A study of Mus musculus with 12 samples.

Results

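Kidneys of mice given cisplatin together with dichloroacetate were compared with kidneys of mice given saline, to describe which transcripts still differed from the untreated level when dichloroacetate had been added. The comparison takes 3 of 12 libraries from each of these groups, 6 of 12 in all, and every expressed gene, 20370 of the 28991 in the count table. All mice were male BALB/c mice, an inbred laboratory strain, aged 8 weeks, and RNA came from whole kidney. The combination mice received dichloroacetate at 250 mg per kg intraperitoneally each day for 5 days, then cisplatin at 20 mg per kg with a further dose of dichloroacetate, and were killed 24 h after the cisplatin. The saline mice received daily intraperitoneal saline for 6 days. The other groups, also of 3 mice each, received saline for 5 days and then cisplatin alone at 20 mg per kg, or dichloroacetate alone at 250 mg per kg for 6 days, and their values stand beside the comparison. The combination differed from saline in both agents, so their separate parts cannot be told apart within this contrast.

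Cisplatin is a platinum drug that crosslinks DNA and collects in the proximal tubule, where it injures the epithelium. Damaged DNA stabilises the transcription factor p53, which switches on genes for cell cycle arrest, repair and cell death, while reactive molecules free the factor NRF2 to switch on detoxifying enzymes. Dichloroacetate inhibits the pyruvate dehydrogenase kinases, which inactivate pyruvate dehydrogenase, the mitochondrial enzyme that turns pyruvate into acetyl-CoA. The proximal tubule reabsorbs most filtered solutes with energy from fatty acids, and injured tubule cells lose their transporters and express markers such as Havcr1.

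The combination libraries held 29505929 to 35082408 counts and the saline libraries 38236592 to 55832441. Transcripts of the mitochondrial genome took 12.02 to 12.54% of counts in the combination and 13.86 to 14.76% in saline. On the first principal component of log2 expression the combination mice lay at 27.03 to 32.52, between the saline mice at -49.63 to -48.25 and the cisplatin mice at 61.52 to 75.86. On the second component the combination mice lay at -32.95 to -18.24, apart from both the saline mice (0.5 to 15.09) and the cisplatin mice (7.68 to 21.65). Levels are in CPM, where each count is set against the total of its library after TMM scaling. They are not divided by gene length and are compared within a gene only. Differences are log2 fold changes ± SE from 3 against 3 mice, with the adjusted p of the edgeR quasi-likelihood test across all genes. A gene is called at an adjusted p below 0.05.

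Of the 20370 genes tested, 8189 (40.2%) differed between the combination and saline. Of these, 4203 (20.6% of genes tested) were higher and 3986 (19.6%) lower. The counts of list members given below are to be read against these shares. At a size of at least 1 log2 unit the falls were more numerous, with 630 genes higher (3.09%) and 984 lower (4.83%), 1614 in all (7.92%). The saline and combination values did not overlap in 10251 genes (50.3%). A gene was described as near the saline level where the 95% confidence interval of its difference lay wholly within 0.5 log2 units of 0, and 9684 genes (47.5%) met this. The median difference over all genes was 0.011. For the same genes, cisplatin alone differed from the same saline mice in 12244 (60.1%), with 6048 higher (29.7%) and 6196 lower (30.4%). Dichloroacetate alone differed from these saline mice in 63 (0.309%), with 26 higher (0.128%) and 37 lower (0.182%). The combination differed from cisplatin alone in 6441 genes (31.6%), 3688 higher (18.1%) and 2753 lower (13.5%). That contrast uses the same combination mice.

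Targets of p53 stayed above saline as a list. Of the 43 p53 targets tested, 36 were higher in the combination than in saline and 2 lower, 88.4% called against 40.2% of all genes. The list's median difference was 1.31. With cisplatin alone 38 were higher and 2 lower, with a median of 1.84, and against cisplatin alone the combination was lower in 26 and higher in 4. Cdkn1a, the p21 inhibitor of cyclin-dependent kinases (ENSMUSG00000023067, chr17:29090976-29100727, forward strand, GRCm38), stood at 165, 153 and 207 CPM in the combination mice and at 4.72, 3.18 and 3.31 in the saline mice. Every combination mouse lay far above every saline mouse, and the difference was 5.55 ± 0.20 (adjusted p = 4.4e-10). Cisplatin alone gave 408, 391 and 332 CPM, and the combination differed from it by -1.11 (adjusted p = 0.00017). Mdm2, the ubiquitin ligase that degrades p53, stood at 135, 129 and 138 CPM against 43.2, 43.6 and 41.5 in saline, a difference of 1.65 ± 0.07 (adjusted p = 2.8e-09).

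Against cisplatin alone 13 of the 43 were not called, Ccng1 among them. Ccng1, which encodes cyclin G1 (ENSMUSG00000020326, chr11:40748552-40755311, reverse strand), stood at 973, 987 and 1018 CPM in the combination and 158, 168 and 174 in saline, with no overlap. Its difference from saline was 2.58 ± 0.07 (adjusted p = 3e-11). Cisplatin alone gave 1057, 999 and 1015 CPM, and the interval of the difference between combination and cisplatin was -0.18 to 0.09 log2 units. Dichloroacetate alone also raised Ccng1, by 0.40 (adjusted p = 0.028). Bax, a pore-forming promoter of cell death, stood at 90.9, 88.1 and 86.7 CPM against 24.7, 24.7 and 27.7, a difference of 1.79 ± 0.07, and differed from cisplatin alone by -0.30. Phlda3, an inhibitor of AKT signalling, rose by 4.72 to a mean of 66.1 CPM from 2.51. Eda2r, a receptor of the tumour necrosis factor family, rose by 5.15 to a mean of 15.6 CPM from 0.436. Aen, a nuclease induced in apoptosis, rose by 2.30. The members below saline were Sesn1, at 13.4, 15.3 and 12 CPM against 16.6, 16.8 and 15.9 (-0.28, adjusted p = 0.013), and the ribonucleotide reductase subunit Rrm2b (-0.21). The call of Sesn1 was lost without combination mouse 3.

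**Figure D1:**
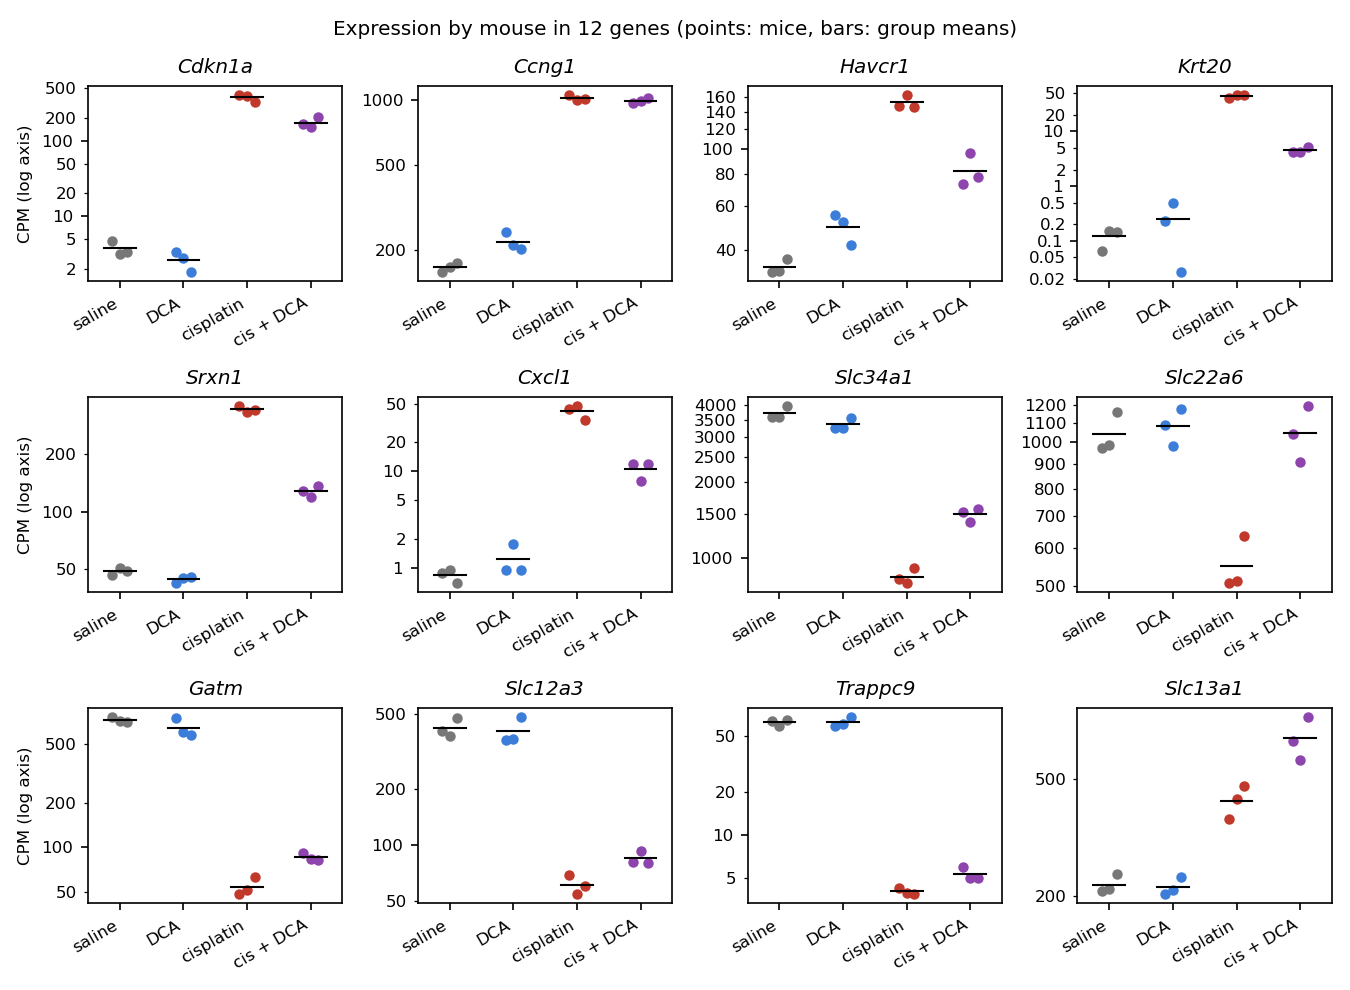
Expression of 12 genes in each mouse, in CPM on a log axis that differs between panels; points are mice, bars are means of 3 mice, and cis + DCA is the combination of cisplatin and dichloroacetate. Ccng1 and Trappc9 stayed near the cisplatin level, Slc22a6 lay at the saline level, and Slc13a1 lay above both.

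The 12 largest rises among protein-coding genes with at least 5 CPM were those of Saa4, Cdkn1a, Gstp3, Eda2r, Inka2, Psrc1, Phlda3, Ddias, Gtse1, Ckap2, Gdf15 and Ces2e, from 5.70 for Saa4 to 3.75 for Ces2e. Saa4, a serum amyloid A protein, stood at 9.95, 10.8 and 10.4 CPM in the combination and 0.177, 0.23 and 0.173 in saline. Psrc1 (4.96), Gtse1 (4.34) and Ckap2 (4.15) encode proteins of microtubules and the mitotic spindle, and Ddias (4.52) a suppressor of apoptosis after DNA damage. Ces2e, a carboxylesterase, stood at 116, 122 and 129 CPM against 7.77, 9.05 and 10.6. For all 12 the combination mean lay between the saline and the cisplatin mean, and 11 of 12 differed from cisplatin alone, Ces2e being the exception (-0.22, interval -0.43 to -0.01). The list of p53 targets holds Cdkn1a, Eda2r, Psrc1, Phlda3, Gtse1, Ckap2 and Gdf15. Gstp3 and Saa4 belong to families with close copies among which reads may have been divided.

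Lists of DNA repair and cell cycle genes had medians near 0. Of 46 DNA repair genes, 15 were higher and 2 lower, with a median of 0.11. In this list 37% were called against 40.2% of all genes, where 20.6% were higher and 19.6% lower. The rises were led by the translesion polymerase Polk (1.47) and the excision nuclease Ercc5 (1.03). Xpc, which recognises damaged bases, stood at 44.3, 47.8 and 44.7 CPM against 46.2, 44.4 and 42.7 in saline, with an interval of -0.07 to 0.15. The Fanconi genes Fancd2 (-1.65) and Fancc (-0.90) were the members called lower. Of 41 cell cycle and replication genes, 8 were higher and 8 lower (39% called, near the 40.2% of all genes). The sign of the list's median changed with the scaling (0.023 with the main scaling, -0.006 with upper-quartile scaling). Cyclin D1 fell from a mean of 283 to 128 CPM (-1.14), and Mki67, a marker of dividing cells, from a mean of 2.22 to 1.09 CPM (-1.02). Among 35 genes of apoptosis and regulated necrosis, 14 rose and 5 fell (54.3% called against 40.2% of all genes). Rises included the survival gene Bcl2l1 (1.02) and the necroptosis effector Mlkl (0.75), while Bcl2 fell (-0.56).

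Markers of tubular injury remained raised in part. Of 38 tested, 19 were higher than in saline, 5 lower and 14 not called, with a median of 0.40 (0.72 for cisplatin alone). Havcr1, which encodes kidney injury molecule 1 (ENSMUSG00000040405, chr11:46735080-46779578, forward strand), stood at 72.8, 96.4 and 77.6 CPM against 32.8, 33 and 37 in saline, with no overlap. It was higher than saline by 1.26 ± 0.11 (adjusted p = 1.5e-06) and lower than with cisplatin alone (148, 164 and 146 CPM), with a difference of -0.89. Dichloroacetate alone gave 55, 51.8 and 42 CPM, a difference of 0.53 that was not called (adjusted p = 0.072). Krt20, a keratin of stressed epithelium, stood at 4.23, 4.1 and 5.12 CPM in the combination against 0.0664, 0.153 and 0.144 in saline and 39.6, 46 and 45.7 with cisplatin alone. The difference was 5.17 from saline and -3.29 from cisplatin alone.

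Lcn2, the iron-binding lipocalin used as a urinary injury marker, stood at 4.52, 5.41 and 4.08 CPM against 1.06, 0.94 and 0.805, a rise of 2.31 ± 0.29 (adjusted p = 3.7e-05). Against cisplatin alone (4.57, 8.92 and 6.7 CPM) it did not pass the test, with an interval of -1.05 to 0.01. The stress hormone Gdf15 rose from a mean of 3.78 to 53.3 CPM, and the TWEAK receptor Tnfrsf12a from a mean of 12.9 to 75.8 CPM. Both were below cisplatin alone, with differences of -1.03 and -1.49. Spp1, the matrix protein osteopontin, rose by 0.84. Vcam1 stood at 4.62 to 5.53 CPM and 4.14 to 5.74 in saline, Clu differed by 0.10 and Sox9, a regulator of tubule repair, by 0.70 (adjusted p = 0.096), none of them called. Igfbp1, an insulin-like growth factor binding protein, fell from a mean of 16.2 to 3.17 CPM (-2.36). In dichloroacetate alone it stood at 5.34 to 10.5 CPM, outside the saline range, with an adjusted p of 0.056.

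Targets of NRF2 were the list with the largest share of members above saline: 31 of 36 were higher and 2 lower, with a median of 0.63 against 0.95 for cisplatin alone. Srxn1, which reactivates peroxiredoxins (ENSMUSG00000032802, chr2:152105516-152111376, forward strand), stood at 128, 119 and 136 CPM in the combination and 46.8, 51.1 and 49.2 in saline, a difference of 1.38 ± 0.06 (adjusted p = 2.8e-09). With cisplatin alone it stood at 359, 332 and 340.1, from which the combination differed by -1.42. Nqo1, a quinone reductase, kept a larger part of its rise, at 149.6, 142 and 150.4 CPM against 41, 41.1 and 39.7 in saline (1.86 ± 0.05) and 202, 199 and 209 with cisplatin alone. Aldh1a1, which oxidises retinal and other aldehydes, stood at 44, 40.2 and 47.2 CPM against 8.06, 8.13 and 6.96 in saline and 37.9, 44.4 and 70.6 with cisplatin alone. It rose by 2.50 ± 0.20 and its difference from cisplatin alone spanned -0.60 to 0.16. Haem oxygenase Hmox1 (1.31), thioredoxin reductase Txnrd1 (1.40) and the glutathione synthesis enzyme Gclc (0.67) rose and were below cisplatin alone (differences of -1.57, -0.95 and -0.68). The members below saline were Akr1b3 (-0.57), aldose reductase, and Me1 (-0.48), which makes NADPH.

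NRF2 binds with small Maf proteins to an element whose core is TGACNNNGC, and the related TGANTCA is bound by AP-1 proteins and contained in many NRF2 sites. In the 300 bases from 250 before to 50 after the RefSeq start site (GRCm38.p6), searched on both strands, TGACNNNGC was present in 8 of 29 NRF2 targets with a promoter in the table (27.6%) and in 12.5% of all 27025 promoters. That motif was as frequent in other lists, at 9 of 32 promoters of integrated stress response genes (28.1%) and 4 of 19 of early response genes (21.1%). TGANTCA was present in 6 of 29 NRF2 targets (20.7%), in 4 of 24 cytokine genes (16.7%) and in 7.93% of all promoters. It was present in 0 of 19 promoters of the early response and AP-1 list. In p53 targets it was present in 1 of 32 (3.12%) and in integrated stress response genes in 2 of 32 (6.25%). The 2 motifs can overlap, and a match describes these letters only. The promoters of Srxn1 (chr2:152105274-152105573, forward strand), Aldh1a1 (chr19:20492333-20492632, forward strand) and Abcc2 (chr19:43782058-43782357, forward strand) are shown because, against cisplatin alone, Srxn1 and Abcc2 were lower and Aldh1a1 was not called. Capitals mark TGANTCA in Srxn1 and Aldh1a1 and TGACNNNGC in Abcc2. Srxn1 also holds TGACNNNGC on the other strand, 28 to 36 bases from the start site (GCTAGGTCA), left in lower case.
Srxn1: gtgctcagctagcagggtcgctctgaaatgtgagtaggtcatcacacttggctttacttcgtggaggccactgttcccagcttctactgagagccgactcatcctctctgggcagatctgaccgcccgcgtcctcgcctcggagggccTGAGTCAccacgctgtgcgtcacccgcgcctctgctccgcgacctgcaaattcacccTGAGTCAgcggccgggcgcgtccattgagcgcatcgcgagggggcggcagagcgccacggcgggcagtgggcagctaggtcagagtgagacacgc
Aldh1a1: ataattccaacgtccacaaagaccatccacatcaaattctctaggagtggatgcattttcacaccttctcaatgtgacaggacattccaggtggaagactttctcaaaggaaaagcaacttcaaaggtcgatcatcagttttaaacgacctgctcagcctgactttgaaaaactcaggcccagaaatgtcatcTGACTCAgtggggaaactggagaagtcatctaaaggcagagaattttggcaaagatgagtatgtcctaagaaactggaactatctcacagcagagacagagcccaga
Abcc2: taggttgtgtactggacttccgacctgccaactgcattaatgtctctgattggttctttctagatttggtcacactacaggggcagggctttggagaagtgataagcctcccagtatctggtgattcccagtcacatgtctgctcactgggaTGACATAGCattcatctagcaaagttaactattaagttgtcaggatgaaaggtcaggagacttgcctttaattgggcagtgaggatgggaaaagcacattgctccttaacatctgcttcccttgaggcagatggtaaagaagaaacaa

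Abcc2, an efflux pump that exports glutathione conjugates, stood at 173, 160.3 and 190.4 CPM against 91, 92.4 and 83.4 in saline (a rise of 0.97 ± 0.08, adjusted p = 7.6e-07) and 311, 259 and 268 with cisplatin alone. It was among 19 genes of cisplatin uptake, export and bioactivation, of which 8 were higher and 8 lower (84.2% called against 40.2% of all genes). The multidrug pumps Abcb1a (1.04) and Abcb1b (1.63), which are close copies, were also higher. The cation transporter Slc22a2, a route of cisplatin uptake, stood at 253, 224 and 269 CPM against 309.7, 335 and 344, a difference of -0.41. Ggt1, the glutamyltransferase that starts the conversion of glutathione conjugates (-0.63), and the exporter Slc47a1 (-0.36) also fell. All 3 were above cisplatin alone, by 0.51, 0.56 and 0.55, and dichloroacetate alone differed from saline by 0.04, 0.09 and 0.00, not called for any of them.

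**Figure D2:**
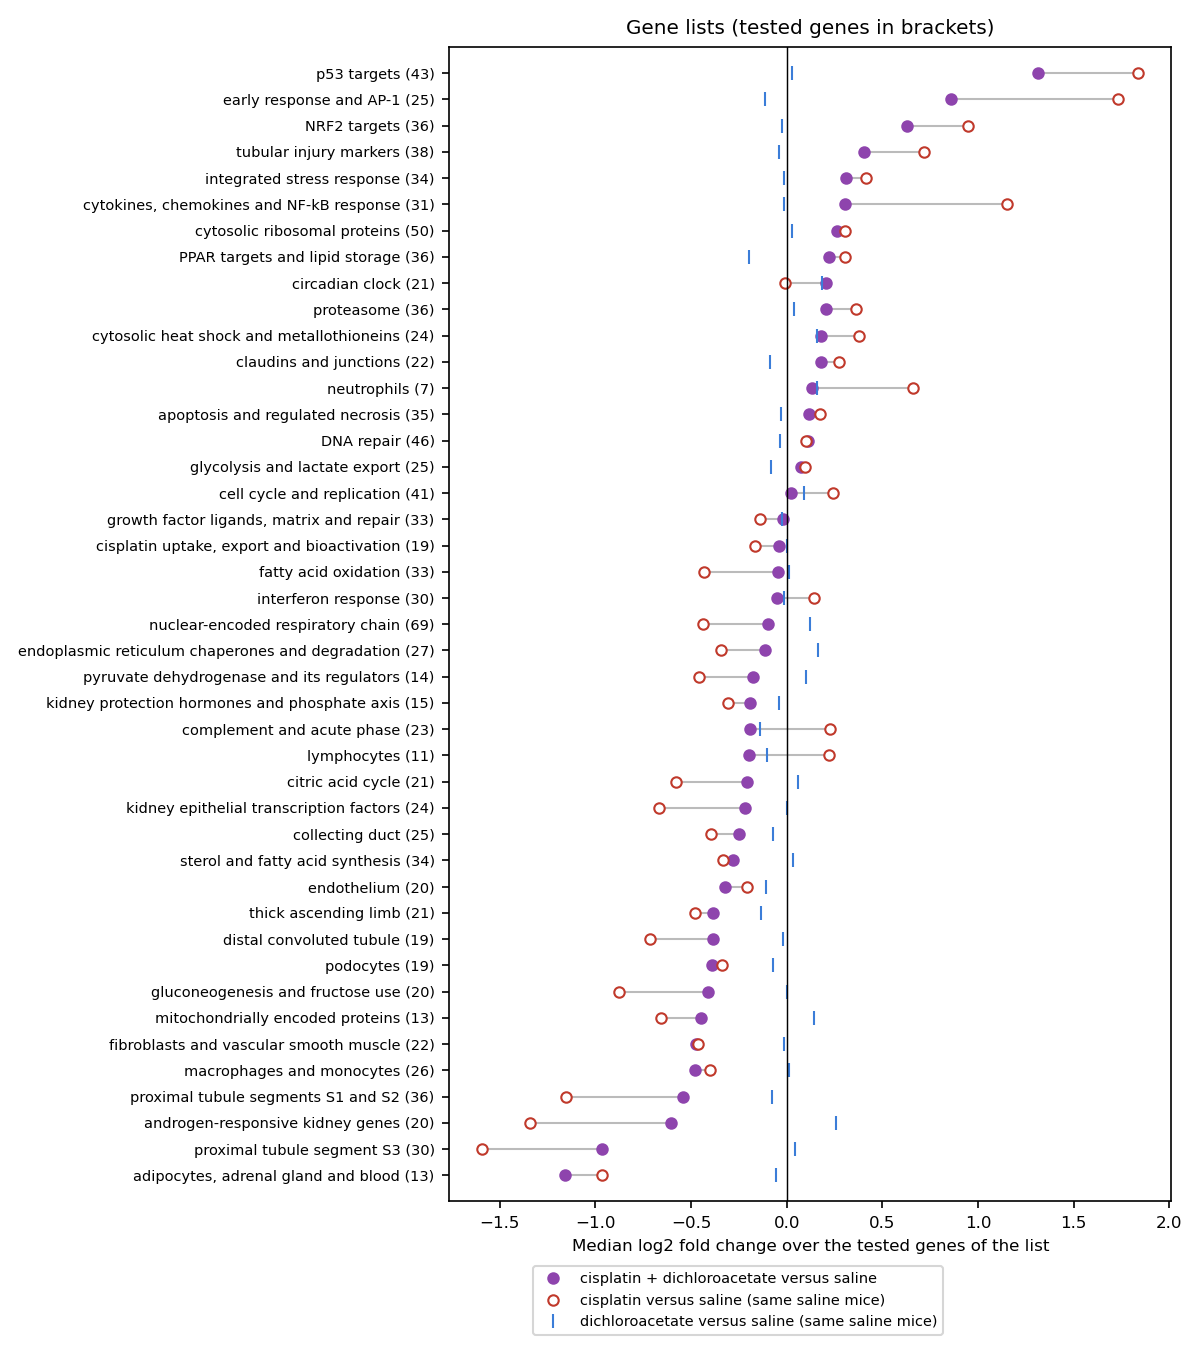
Median log2 fold change of each gene list against the saline mice, for the combination (filled circles), cisplatin alone (open circles) and dichloroacetate alone (ticks); the 3 comparisons share the saline mice. The combination lay between 0 and cisplatin alone in most lists, with p53 targets at 1.31 and segment S3 of the proximal tubule at -0.97.

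Early response genes and cytokines stood between the saline and cisplatin levels. Of 25 early response and AP-1 genes, 20 were higher than saline and 0 lower, with a median of 0.86 (1.73 for cisplatin alone), and 20 were below cisplatin alone. Myc stood at 9.98, 7.99 and 11.9 CPM against 3.23, 4.43 and 3.94 in saline and 34, 28.9 and 27.5 with cisplatin alone, a rise of 1.36 ± 0.17 (adjusted p = 3.1e-05). Egr1 rose by 1.73, Jun by 1.27, and Atf3 by 1.90. Of 31 cytokine, chemokine and NF-kB response genes, 14 were higher, 2 lower and 15 not called, with a median of 0.30 (1.15 for cisplatin alone). In this list 51.6% were called against 40.2% of all genes, where 20.6% were higher and 19.6% lower. Cxcl1, which attracts neutrophils, stood at 11.9, 7.85 and 11.9 CPM against 0.886, 0.94 and 0.69 in saline and 44.8, 47.9 and 34.5 with cisplatin alone. It was higher than saline by 3.62 ± 0.25 (adjusted p = 1.3e-07) and below cisplatin alone (difference -2.01). The cytokine Lif rose by 3.32 and the NF-kB cofactor Nfkbiz by 1.05. Tnf stood at 0.122 to 0.228 CPM and 0.111 to 0.192 in saline, Ccl2 at 0.365 to 0.842 and 0.345 to 0.71, and Il6 did not exceed 3 counts in any library. The interleukin Il18 fell by 0.90.

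Cxcl10, a chemokine of interferon and NF-kB signalling, stood at 2.93, 2.28 and 3.9 CPM in the combination, 1.9, 0.978 and 0.776 in saline and 22.4, 20.1 and 10.4 with cisplatin alone. Its difference from saline was 1.29 ± 0.43 (adjusted p = 0.028) and was no longer called without saline mouse 2, saline mouse 3, combination mouse 1 or combination mouse 3, each left out in turn. Against cisplatin alone it was -2.54 (adjusted p = 0.00014). The gene lies within Art3 on the opposite strand, and the library kit does not mark strand. The NF-kB motif GGGANTTCC was present in 5 of 24 promoters of the cytokine list (20.8%) and in 1.69% of all promoters, searched on both strands. The promoter of Cxcl10 (chr5:92348840-92349139, reverse strand, GRCm38.p6) is shown with this motif in capitals.
Cxcl10: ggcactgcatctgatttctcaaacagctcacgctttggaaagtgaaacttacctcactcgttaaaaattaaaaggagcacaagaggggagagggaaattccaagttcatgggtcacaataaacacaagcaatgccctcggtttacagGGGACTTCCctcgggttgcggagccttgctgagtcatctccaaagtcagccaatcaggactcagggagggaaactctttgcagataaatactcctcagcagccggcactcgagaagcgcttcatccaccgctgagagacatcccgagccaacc

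Of 30 interferon response genes, 4 were higher and 0 lower, 13.3% called against 40.2% of all genes. Oasl1 stood at 5.41 to 7.46 CPM against 0.92 to 2.08 (2.12), and the RNA sensor Ddx58 rose by 0.67. Ifit1 (0.28), Irf7 (0.26) and Isg15 (0.48) were not called. In the complement and acute phase list 9 of 23 were higher and 5 lower (60.9% called against 40.2% of all genes, where 20.6% were higher and 19.6% lower). Complement C3 stood at 80.5, 86.7 and 93.5 CPM against 11.9, 17 and 11.8 in saline and 126, 155 and 148 with cisplatin alone, a rise of 2.67 ± 0.16 (adjusted p = 4.8e-08). Serpina7, the thyroxine-binding globulin, rose by 4.21 from 0.144 to 0.326 CPM in saline, while C4b fell (-0.55).

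**Figure D3:**
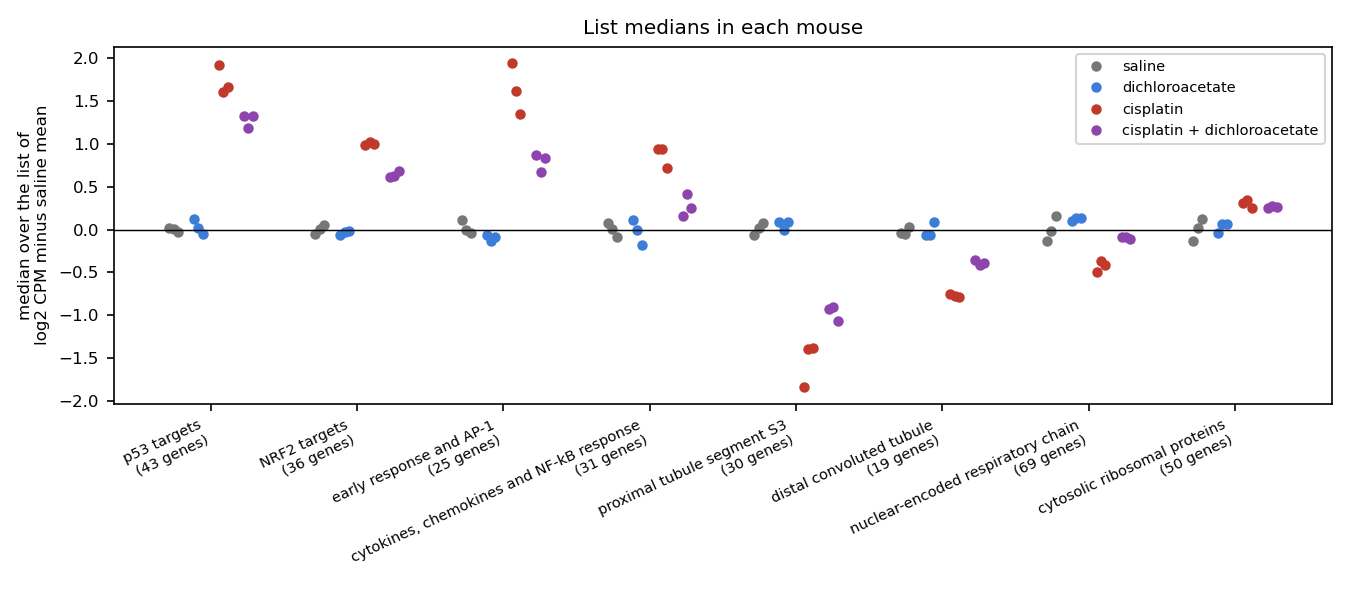
Median over each of 8 lists of log2(CPM + 0.5) minus the mean of the saline mice, for every mouse. The 3 combination mice lay together in each list and apart from the saline mice, except in the respiratory chain list, where they fell within the saline range.

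Transporters of the proximal tubule stayed below saline, by less than with cisplatin alone. Of 36 genes of segments S1 and S2, 24 were lower and 5 higher (median -0.54, cisplatin alone -1.15), and 30 were above cisplatin alone. Of 30 genes of segment S3, 22 were lower and 1 higher (median -0.97, cisplatin alone -1.59). In whole kidney, fewer cells of a type and less RNA per cell cannot be told apart. Slc34a1, the main phosphate transporter of the brush border (ENSMUSG00000021490, chr13:55398187-55415592, forward strand), stood at 1515, 1384 and 1563 CPM in the combination and 3604, 3594 and 3974 in saline. No value overlapped, and the difference was -1.32 ± 0.07 (adjusted p = 9e-09). Cisplatin alone gave 829.6, 799 and 916 CPM, and the combination was above it by 0.81 ± 0.07. The endocytic receptors Lrp2 (megalin), at 1019, 1039.6 and 1068 CPM against 1963, 1961 and 2231, and Cubn (cubilin), at 168, 162 and 181 against 346 ± 40.3 (mean ± SD, n = 3), were lower, with differences of -0.98 and -1.02 (adjusted p = 1.4e-05 and 8e-06).

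Members of these lists with deep falls were Gatm, the first enzyme of creatine synthesis, Cyp2e1 and Miox, which breaks down inositol. Gatm (ENSMUSG00000027199, chr2:122594467-122611303, reverse strand) stood at 91.2, 83.6 and 82 CPM against 759.6, 708 and 703 in saline and 48.2, 51.4 and 63 with cisplatin alone, a difference of -3.08 ± 0.11 (adjusted p = 4.4e-10). The differences of Cyp2e1, a cytochrome of drug metabolism, and of Miox were -1.90 and -1.84. The cystine transporter Slc7a13, a marker of S3, stood at 377, 379 and 390.0 CPM against 842, 959 and 1007 (-1.29), and the glucose transporter Slc5a2 fell by 0.77. The organic anion transporters Slc22a28 (-1.77) and Slc22a29 (-3.13), the latter in neither list, also fell, and as near copies of each other their counts are uncertain.

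Some proximal genes were at the saline level. Slc22a6, the organic anion transporter OAT1 (ENSMUSG00000024650, chr19:8618039-8628299, forward strand), stood at 1042, 909 and 1192 CPM in the combination, 972, 987 and 1158 in saline and 507, 513 and 636 with cisplatin alone. The combination and saline ranges overlapped, the difference from saline was 0.01 ± 0.11 with an interval of -0.23 to 0.25, and the difference from cisplatin alone was 0.92 ± 0.11 (adjusted p = 5.5e-05). Its neighbour Slc22a8, which encodes OAT3, was lower than saline at 246, 207 and 260.3 CPM against 339.5, 366 and 463 (-0.71, adjusted p = 0.00027). Dichloroacetate alone gave 244, 265 and 285 CPM for Slc22a8, below the saline range but not called (adjusted p = 0.064). The sodium glucose transporter Slc5a1 stood at 43.3 to 52.6 CPM and 48.5 to 53.8 in saline (interval -0.23 to 0.12). The neutral amino acid transporter Slc6a18 was slightly higher (0.29), as was the S3 transporter Slc6a13 (0.49).

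Of 24 transcription factors of the kidney epithelium, 10 were lower, 1 higher and 13 not called. In this list 45.8% were called against 40.2% of all genes, where 19.6% were lower and 20.6% higher. Hnf4a, which maintains the proximal programme, stood at 609, 634 and 594 CPM against 656, 745 and 771 in saline (interval -0.49 to 0.01) and 301, 318 and 419 with cisplatin alone, and the combination was above cisplatin alone by 0.82 ± 0.12 (adjusted p = 0.00016). Esrrg, a nuclear receptor of oxidative tubule cells, was lower than saline (-0.94).

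Genes of the distal nephron were also below saline. Of 21 thick ascending limb genes, 13 were lower and 2 higher, and against cisplatin alone 2 were higher and 2 lower, 19% called against 31.6% of all genes. Umod, which encodes uromodulin, stood at 904, 1226 and 802 CPM against 2339.6, 2102 and 2302 in saline and 1011, 886 and 1189 with cisplatin alone. The difference from saline was -1.20 ± 0.13 (adjusted p = 1.3e-05), and the interval against cisplatin alone was -0.36 to 0.21. Egf, the growth factor made by these cells, stood at 130.2, 228 and 134 CPM against 967, 956 and 951, a difference of -2.55 ± 0.19, and against cisplatin alone (124, 120.2 and 158) the interval was -0.09 to 0.67. Combination mouse 2 lay above the other two for both genes. Of 19 distal convoluted tubule genes, 13 were lower and 2 higher. Slc12a3, the thiazide-sensitive cotransporter, stood at 80.8, 92.8 and 79.6 CPM against 405, 384 and 479.9 in saline and 69.2, 54.4 and 59.9 with cisplatin alone (-2.33 ± 0.13, adjusted p = 1.7e-08). Abca13 (-2.36), the magnesium channel Trpm6 (-1.61) and the calcium buffer Pvalb (-1.63) fell as well, and the calcium channel Trpv6 rose (1.57).

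Of 25 collecting duct genes, 11 were lower and 1 higher (48% called against 40.2% of all genes, where 19.6% were lower and 20.6% higher). The water channel Aqp2 stood at 278, 294 and 219 CPM and 288, 246 and 286 in saline, overlapping, with an interval of -0.29 to 0.19, while Aqp3 on the opposite membrane (-0.88) and the anion exchanger Slc4a1 (-0.82) fell. Of 19 podocyte genes, 11 were lower and 1 higher (63.2% called). Nphs1, which encodes nephrin, stood at 13.1 to 17.8 CPM against 15.2 to 18.3 (-0.12, not called).

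All called markers of endothelium and stroma were below saline, whereas 19.6% of all genes were called lower and 20.6% higher. For endothelium, 8 of 20 were lower, 0 higher and 12 not called (40% called), and their summed level was 374 to 481 CPM against 505 to 657 in saline. Kdr, the VEGF receptor, stood at 23.3, 25.2 and 20.0 CPM against 48.5, 36.9 and 35.3 (-0.82 ± 0.11, adjusted p = 7.2e-05) and 23.9, 20.8 and 23 with cisplatin alone. For fibroblasts and vascular smooth muscle, 10 of 22 were lower, 0 higher and 12 not called (45.5% called, summed 368 to 454 CPM against 503 to 691), with Col3a1 at -1.09. By list median, saline mouse 1 and combination mouse 3 lay farthest apart in both lists. The endothelial genes Emcn and Robo4 (both -0.47) lost their calls when either mouse was left out, while Kdr and Pecam1 (-0.41) kept theirs in every setting. Among adipocyte, adrenal and blood markers, 7 of 13 were lower and 1 higher (summed 161 to 185 CPM against 348 to 705). Haemoglobin Hba-a1 stood at 24.3, 26.1 and 25.4 CPM against 55.2, 78.4 and 145 in saline (-1.88), and the saline mice differed widely among themselves. The adrenal gene Cyp11b1 was at 0 in all groups but saline, where it reached 0.345 CPM.

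Of 26 macrophage and monocyte markers, 9 were lower, 2 higher and 15 not called. In this list 42.3% were called against 40.2% of all genes, where 19.6% were lower and 20.6% higher. The summed level was 203 to 234 CPM against 288 to 326 in saline and 243 to 292 with cisplatin alone. The markers called higher were the lysosomal protein Cd68, at 4.16, 4.1 and 6.3 CPM against 2.66, 1.94 and 1.52 in saline and 41.6, 32.7 and 25 with cisplatin alone (1.23 ± 0.25, adjusted p = 0.0016), and the endotoxin receptor Cd14 (1.20). The receptor Csf1r (-0.64), the defining marker Adgre1 (-0.98) and the antigen-presenting H2-Aa (-0.79) fell. Of 15 neutrophil markers, 7 passed the count filter and 1 was called (14.3% against 40.2% of all genes). The called marker was Lcn2, which tubule cells also make. Ly6g stood at 15.9 to 20.7 CPM and 14.8 to 23.8 in saline, and S100a8 at 0.0609 to 0.326 and 0.0886 to 0.144. The 8 neutrophil markers below the filter did not exceed 9 counts in any library. Whether the Ly6g counts came from neutrophils was not tested. Of 23 lymphocyte markers 11 passed and summed to 18.4 to 21.2 CPM against 16.4 to 17.7. The part of these cells in the gene groups described here was not tested.

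**Figure D4:**
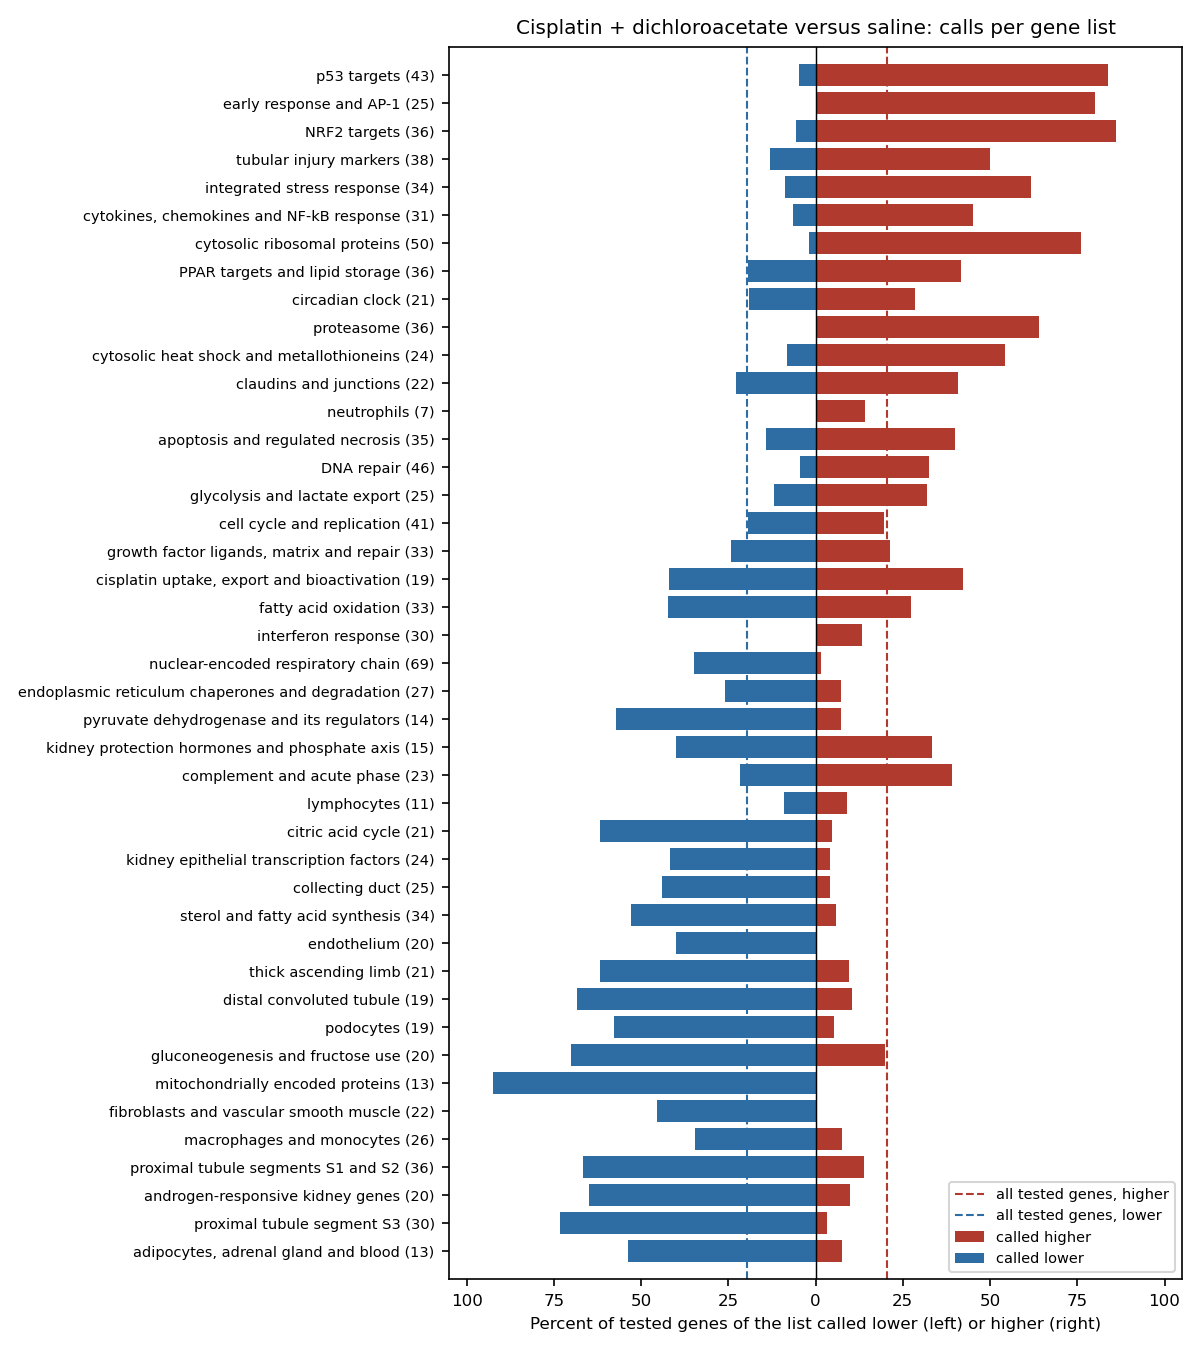
Share of each list's tested genes called lower (left) or higher (right) in the combination against saline; dashed lines give the shares among all genes, 19.6% lower and 20.6% higher. NRF2 and p53 targets and early response genes lay farthest to the right, and mitochondrially encoded and proximal S3 genes farthest to the left.

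Genes of fatty acid oxidation were divided. Of 33 genes in the list, 14 were lower and 9 higher (median -0.04, cisplatin alone -0.43), and 26 were above cisplatin alone. The medium-chain dehydrogenase Acadm stood at 516 to 527 CPM against 709 to 862 (-0.60), and the carnitine transferase Cpt1a of the outer membrane fell (-0.41). The inner enzyme Cpt2 (0.33), the trifunctional protein Hadha (0.39) and Eci1 (0.56) were above saline. Among 36 PPAR targets and lipid storage genes, 15 were higher and 7 lower (61.1% called against 40.2% of all genes, where 20.6% were higher and 19.6% lower). The lipid droplet coat Plin2 stood at 106, 86.2 and 117 CPM against 13.2, 14.4 and 14.3 in saline and 323, 388 and 404 with cisplatin alone (2.88 ± 0.13, adjusted p = 3.2e-09). Cyp4a14, a fatty acid hydroxylase, stood at 67.6, 64.4 and 52.4 CPM against 5.36, 7.65 and 11.4 and 28.3, 50.4 and 109 with cisplatin alone, where the mice spread widely.

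Of 20 genes of gluconeogenesis and fructose use, 14 were lower and 4 higher. Pck1, the enzyme that commits oxaloacetate to glucose, stood at 743, 641 and 891 CPM against 1028, 1468 and 1555 in saline (-0.83 ± 0.19, adjusted p = 0.0037) and 137, 156 and 219 with cisplatin alone (2.15 ± 0.20 for the combination against cisplatin). Pyruvate carboxylase Pcx (-1.73), Fbp1 (-0.99) and G6pc (-1.24) fell, while the transaminase Gpt rose by 1.24. For the enzyme system that dichloroacetate acts on, 8 of 14 genes of pyruvate dehydrogenase and its regulators were lower and 1 higher. The one above saline was the kinase Pdk4, at 29.3, 26 and 34.8 CPM against 10.2, 18.1 and 9.55 in saline and 139, 124 and 84.1 with cisplatin alone (1.24 ± 0.28, adjusted p = 0.0036). The kinase Pdk2 (-0.64), the catalytic subunit Pdha1 (-0.37) and the phosphatase Pdp2 (-0.59) fell, and Pdk1 did not pass the test (-0.15, interval -0.37 to 0.06). Of 25 glycolysis and lactate export genes, 8 were higher and 3 lower (44% called against 40.2% of all genes, where 20.6% were higher and 19.6% lower). Pklr differed by 1.05 and Ldha by 0.08, the latter not called.

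In the citric acid cycle 13 of 21 genes were lower and 1 higher (median -0.21, cisplatin alone -0.58). Suclg2, a subunit of succinyl-CoA ligase (-1.27), and the mitochondrial Idh2 (-1.01) fell, the cytosolic Idh1 rose by 0.32, and citrate synthase Cs had an interval of -0.05 to 0.15. Of 69 nuclear genes of the respiratory chain, 65 were near the saline level by the interval rule, against 47.5% of all genes. The bound of 0.5 was wider than the list's median with cisplatin alone (-0.44). In that list 24 were called lower and 1 higher, with a median of -0.10 (36.2% called, whereas 19.6% of all genes were called lower and 20.6% higher). Cisplatin alone lowered 63 of them from the same saline mice, and 65 were higher in the combination than with cisplatin alone. The complex I subunits Ndufs1 (-0.45) and Ndufs4 (-0.51) were among the falls. Of 13 proteins encoded by the mitochondrial genome, 12 were lower. Cytochrome b, mt-Cytb, stood at 8548, 9167 and 8806 CPM against 14819, 14583 and 13608 (-0.70 ± 0.06), and mt-Nd1 at 7899, 8127 and 8018 against 7742, 7849.7 and 7721 (interval -0.06 to 0.15).

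Genes of protein synthesis and breakdown were above saline by small amounts. Of 50 cytosolic ribosomal protein genes, 38 were higher and 1 lower (median 0.26), and against cisplatin alone 2 were higher and 2 lower. Rplp0 stood at 422, 429 and 432 CPM against 284, 304 and 318 (0.50 ± 0.05, adjusted p = 4.1e-06). Of 36 proteasome genes 23 were higher and 0 lower, led by the catalytic subunit Psmb5 (0.60). In the integrated stress response 21 of 34 were higher and 3 lower. The one-carbon enzyme Mthfd2 (1.54), asparagine synthetase Asns (1.36) and the glutathione-degrading Chac1 (1.30) led the rises, and the transcript of the regulator Atf4 had an interval of -0.04 to 0.20. Of 27 endoplasmic reticulum chaperone and degradation genes, 7 were lower, 2 higher and 18 not called (33.3% called, below the 40.2% of all genes), with Hspa5 at -0.15, not called. Of 24 cytosolic heat shock and metallothionein genes 13 were higher and 2 lower. The small chaperone Cryab stood at 169.8, 184 and 129.6 CPM against 49.1, 42.9 and 48.8 in saline and 125, 169 and 153 with cisplatin alone. The metallothionein Mt2, which binds metals, stood at 48.9, 54.7 and 48.5 CPM against 22.8, 14.6 and 12.4 and 51.2, 52.7 and 43.7, with an interval against cisplatin alone of -0.31 to 0.40.

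The median difference was lowest in the genes that occupy the longest stretches of the genome. By genomic span in GENCODE M21, the median difference between combination and saline was 0.088 in the 5469 genes up to 5 kb, -0.204 in the 1301 genes of 100 to 200 kb, -0.594 in the 538 genes of 200 to 400 kb and -1.052 in the 243 genes above 400 kb. Of genes above 400 kb, 70.8% were called lower and 2.88% higher, against 19.6% and 20.6% of all genes. In the same class cisplatin alone had a median of -1.395 and dichloroacetate alone of -0.008. Sorted by total exon length in place of span, the 2556 genes above 8 kb had a median of -0.062.

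**Figure D5:**
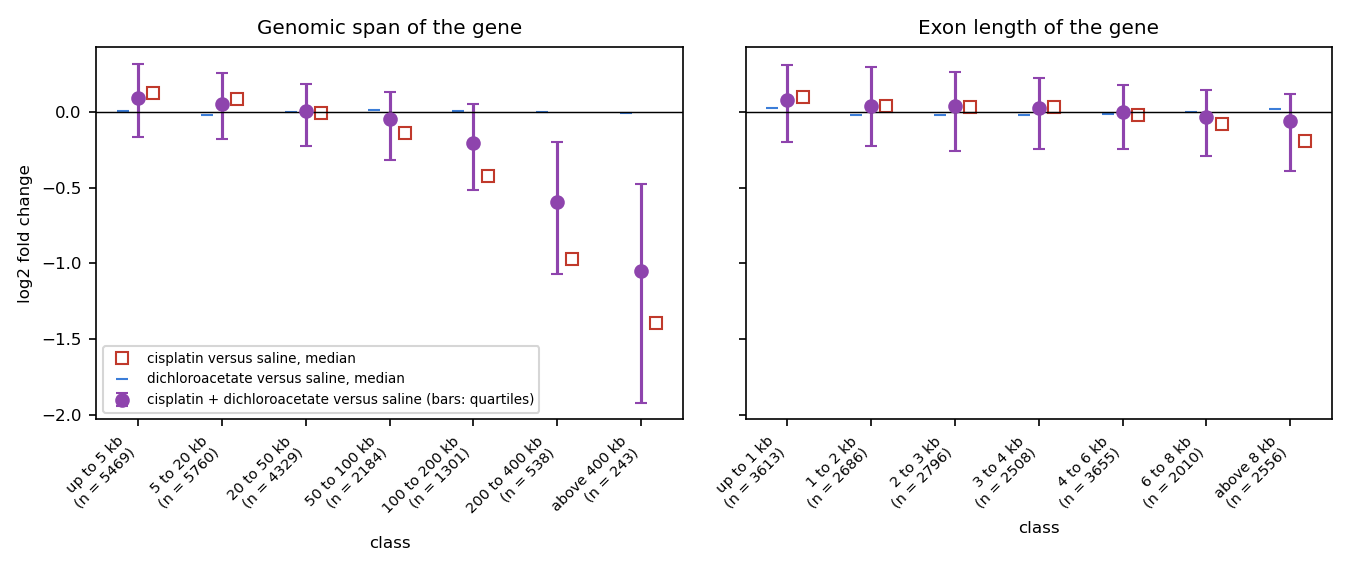
Median log2 fold change by class of genomic span (left) and of exon length (right); filled circles with quartile bars are the combination, open squares cisplatin alone and short lines dichloroacetate alone, all against the same saline mice. The combination fell to -1.05 in the longest class of span and to -0.06 in the longest class of exon length.

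Of the 12 largest falls among protein-coding genes, 7 spanned over 400 kb and 8 over 200 kb, and the shortest spanned 12.2 kb. Of the 12 largest rises none spanned over 50 kb. Fhit, a tumour suppressor at a fragile site, spans 1612 kb (ENSMUSG00000060579, chr14:9550092-11162035, reverse strand) and stood at 0.163, 0.217 and 0.274 CPM against 4.38, 5.06 and 5.84 in saline and 0.0852, 0.0892 and 0.125 with cisplatin alone (-4.52 ± 0.20, adjusted p = 2.8e-09). An antisense gene, Fhitos, overlaps part of it. Trappc9, a subunit of a membrane trafficking complex, spans 472 kb and stood at 5.98, 4.97 and 4.93 CPM against 63.3, 58.7 and 65 (-3.56 ± 0.08). Bbs9, a subunit of the ciliary BBSome, stood at 1.24, 1.28 and 1.25 against 14.6, 16.5 and 13.6, with an interval against cisplatin alone of -0.10 to 0.53. Slc25a21, a mitochondrial carrier of 485 kb, is 1 of 3 of these genes called against cisplatin alone, at 3.64, 2.88 and 2.22 CPM against 21.9, 24.1 and 22.7 in saline and 0.341, 0.386 and 0.775 with cisplatin alone. The difference was -2.98 from saline and 2.50 ± 0.24 from cisplatin alone (adjusted p = 1.1e-05). Kcnh1 (-3.31), Smyd3 (-3.20) and Ccser1 (-3.07) also fell. Among the others of the 12 were Slc22a29, Gatm, Pde6a and Ugt2a3, and Ugt2a3 varied widely in saline (5.96, 18 and 41.1 CPM).

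Some genes went past the level of cisplatin alone in the same direction. Among the largest such steps from cisplatin alone were those of Acnat2, Sh3tc2, Slc13a1 and Dcdc2a, all rises. Slc13a1, the sulphate transporter of the proximal tubule (ENSMUSG00000029700, chr6:24088283-24168092, reverse strand), stood at 672, 583 and 815 CPM in the combination, 366, 429 and 472 with cisplatin alone, 202, 209 and 231 with dichloroacetate alone and 207, 211 and 237 in saline. No combination value overlapped another group. It was above saline by 1.66 ± 0.12 (adjusted p = 1.8e-07) and above cisplatin alone by 0.71 ± 0.12 (adjusted p = 0.00043). Acnat2, an acyltransferase of peroxisomes, stood at 149, 147 and 161 CPM against 58.9, 57.5 and 75.5 in saline and 67.1, 67.3 and 104 with cisplatin alone. Sh3tc2 stood at 95.5, 78.4 and 97.5 CPM against 41.4, 37.6 and 43.7 in saline and 54.9 ± 7.91 with cisplatin alone (mean ± SD, n = 3).

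Other large changes stood at the level of cisplatin alone. The 6 whose difference from cisplatin alone was nearest 0, among genes at least 2 log2 units from saline, were Pzp, Slc39a11, Mad1l1, Nrg1, Ccng1 and Cyp4a14. Nrg1, the ErbB ligand neuregulin 1, stood at 23, 22.2 and 26.7 CPM against 4.87, 5.52 and 4.95 in saline and 22.3, 21.5 and 26.2 with cisplatin alone, a rise of 2.22 ± 0.12 (adjusted p = 1e-08). It overlaps Gm26578 on the opposite strand. Slc39a11, a zinc transporter that shares bases with Sstr2 and Cog1, stood at 4.68, 5.65 and 5.91 CPM against 28.9, 31.8 and 32.6 and 5.77, 5.56 and 4.37. Pzp, a protease inhibitor of the alpha-2-macroglobulin family, stood at 23.6, 19.9 and 20.9 CPM against 159, 158 and 154 in saline and 22.2, 21.4 and 22.7 with cisplatin alone (-2.87 ± 0.07), and the antisense gene Gm10069 lies over part of it. It was also lower with dichloroacetate alone, at 89.3, 86.2 and 95.8 CPM (-0.80 ± 0.06, adjusted p = 0.00019).

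Genes that dichloroacetate alone changed could be followed into the combination. The 6 with the largest such change were Dpys, Cry1, Gusb, Acsm3, Eri2 and Pzp. Dpys, a pyrimidine-degrading enzyme, stood at 2.37, 2.01 and 1.71 CPM in the combination, 1.69, 1.74 and 2.1 with dichloroacetate alone, 1.99, 2.32 and 2.95 with cisplatin alone and 6.36, 4.89 and 7.07 in saline. All 3 treated groups lay below saline, with differences of -1.58 ± 0.18 for the combination and -1.73 ± 0.18 for dichloroacetate alone. The clock repressor Cry1 was higher with dichloroacetate alone (3.25 to 3.8 CPM against 1.73 to 1.81 in saline, 0.98), in the combination (5.07 to 5.82, 1.65) and with cisplatin alone (10.4 ± 0.556, mean ± SD, 2.54). Gusb, beta-glucuronidase, stood at 139, 109 and 164 CPM in the combination, 203, 144 and 147 with dichloroacetate alone, 80.4, 94.9 and 110.3 with cisplatin alone and 88.6, 97.7 and 75.3 in saline, so that only the groups given dichloroacetate were called above saline (0.65 and 0.92, with 0.13 and an adjusted p of 0.53 for cisplatin alone). Acsm3, a medium-chain acyl-CoA synthetase, went in opposite directions: dichloroacetate alone raised it to a mean of 634 CPM from 342 (0.89), and the combination stood below saline at 156 to 191 (-1.02). The genomic spans of Acsm3 and Eri2 overlap by 18835 bases on opposite strands. The overlap of their exons was not computed and the counting settings are not given, so the counts of both genes are uncertain.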

How the data were processed

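RNA of 12 whole kidneys was sequenced, 3 mice in each of 4 groups. Per the labels' protocols, libraries were made with a TruSeq RNA kit. The submitters' processing notes list Trimmomatic, TopHat, HTSeq, Cufflinks, bedtools and DESeq and build mm10, without settings, which are not given in the sources used here. Raw counts per Ensembl gene were deposited by the authors, with a normalised signal of theirs that equals the counts divided by 1 size factor per library (recomputed within a tolerance of 0.0001). Results come from the counts. Of 28991 identifiers, 27955 matched GENCODE M21 (GRCm38, the assembly of mm10).

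The 20370 genes passing filterByExpr were tested with edgeR 4.0.16 (R 4.3.3): TMM scaling, 1 quasi-likelihood model of all 12 libraries with a mean per group, 8 residual degrees of freedom, a biological coefficient of variation of 0.0917, a 2-sided test and Benjamini-Hochberg adjustment over all genes. SE is the log2 fold change divided by the root of F, and 95% intervals use the fit's degrees of freedom. The script was tested on simulated counts. The labels call the replicates biological, and chi-square per degree of freedom between replicates ran from 4.4 to 26.32, so each library was counted. Cisplatin-injected mice had shallower libraries, and the 3 mice per group limit precision for expressed genes.

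Members and the 43 gene lists (1256 entries, 19 unmatched and not analysed here) were chosen with earlier results of these data known, so lists are given by counts and medians without a set test. Named genes are the starred members of each list, the 3 called members with the largest change in each direction per list, the 12 largest rises and falls with at least 5 CPM and no overlap, and 6 genes each past cisplatin alone, at the level of cisplatin alone and changed by dichloroacetate alone; some of these genes are not reported here. Alternatives covered scaling, DESeq2 1.42.0, limma 3.58.1 on log2(deposited signal + 1), count filters, the libraries fitted, a replicate block and omission of each library. Promoters and their positions are RefSeq's.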

Additional observations from a re-analysis of the deposited data

How the results depend on the processing

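The counts of genes higher and lower than saline stayed within 1.5 times of 4203 and 3986 under all 20 settings, running from 3311 to 4234 and from 3248 to 4075 when single libraries were left out. Called genes of at least 1 log2 unit numbered 1614, and 1047 when at least 50 counts in 3 libraries were required, which tests fewer genes; omission of single libraries gave 1486 to 1712. Combination against cisplatin gave 4683 to 6806 and cisplatin against saline 11075 to 12366 under such omissions. The count for dichloroacetate against saline (63) was the least stable: 350 by DESeq2, 119 with no filter, 15 with only the libraries of the 2 groups, and 15 to 126 with single libraries left out. Between saline and combination, mice with the same replicate number were no more alike than others (same-number correlations of deviations -0.095 to 0.095, other numbers -0.207 to 0.187). Between dichloroacetate and combination the same-number correlations were 0.082, 0.144 and 0.149, above those of other numbers (-0.128 to 0.012). Whether mice were paired was not tested. With a replicate block the calls were 4309 higher, 4130 lower, 1616 of at least 1 log2 unit, 6601 against cisplatin, 117 for dichloroacetate and 12334 for cisplatin. Near-saline genes numbered 3251 with a bound of 0.25 and 15891 with a bound of 1 in place of 0.5. By exon length the longest class had a median of -0.062. Other scalings shifted the median of all genes by -0.0113 and -0.0304. Of 352 named genes, 296 were called, 257 of them in every setting that tested them, and none reversed. Low counts limit the interval of genes near 0 CPM in saline, such as Krt20 (SE 0.36).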

Other observations

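Genes of sterol synthesis and androgen-responsive genes were called lower more often than the 19.6% of all genes. Of 34 sterol and fatty acid synthesis genes, 18 were lower in the combination and 2 higher. Cyp51, which demethylates lanosterol, stood at 59.8, 57.5 and 53.4 CPM against 213, 219 and 236 in saline and 41, 44.8 and 40.5 with cisplatin alone (-1.97 ± 0.08, adjusted p = 8.2e-10). The fatty acid synthesis enzyme Acaca fell by 1.10, and Sqle, an earlier step of the sterol route, rose by 0.51. Of 21 clock genes 6 were higher and 4 lower, 47.6% called and near the 40.2% of all genes. The output factor Dbp stood at 90.5 to 103 CPM against 83 to 142 in saline (interval -0.61 to 0.19) and 36.9 to 47.5 with cisplatin alone. Hlf (-0.69), Tef (-0.48) and the repressor Nr1d1 (-0.59) were lower than saline and above cisplatin alone (by 1.32, 0.79 and 0.51). The hour at which mice were killed was not used here.

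Of 20 androgen-responsive kidney genes 13 were lower and 2 higher, and dichloroacetate alone raised 5 and lowered 0. Kap, the kidney androgen-regulated protein, stood at 8855 to 11150.0 CPM against 19085 to 21889 (-1.05). Odc1, the polyamine enzyme, stood at 329.6 to 387 CPM in the combination, 685 to 956 with dichloroacetate alone and 322 to 505 in saline. Of 15 hormone and phosphate axis genes 5 were higher and 6 lower (73.3% called against 40.2% of all genes). Klotho, Kl, the co-receptor for fibroblast growth factor 23, stood at 327, 305 and 352 CPM against 528, 532 and 592 in saline and 199, 194 and 212 with cisplatin alone (-0.75 ± 0.07, adjusted p = 4.1e-06). Cyp24a1, which inactivates vitamin D, stood at 403, 252 and 391 CPM against 43, 116 and 179 in saline, where the mice spread widely (1.63 ± 0.36, adjusted p = 0.0027). Angiotensinogen, Agt, rose from a mean of 0.531 to 4.58 CPM (3.12), and angiotensin-converting enzyme, Ace, fell from a mean of 195 to 86.4 CPM (-1.18). Among growth factor and matrix genes, Ccn1 rose from a mean of 13.7 to 55 CPM, Igf1 fell by 1.02 and Hbegf stood at 12.5 to 13.6 CPM and 10.5 to 12.9 in saline. Of 22 claudin and junction genes 9 were higher and 5 lower (63.6% called against 40.2% of all genes), with Cldn4 at 0.80 and Ocln at 0.66.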
